A study of Mus musculus with 4 samples.

Results

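Glutathione S-transferases join the thiol of glutathione to reactive compounds. The 10 transferase genes Gsta4, Gstm1, Gstm2, Gstm5, Gstp1, Gsto1, Gstt1, Gstt2, Gstk1 and Mgst1 were followed here in mouse colon epithelial cells. They were taken by gene symbol, which gave 15 of the 22690 probe sets in the table, a probe set being the group of array probes that reports 1 transcript. The cells were YAMC, a conditionally immortalised line from the colon of young adult mice. They either received conditioned medium of the probiotic bacterium Lactobacillus GG (LGG) for 16 h or had no treatment. Total RNA of each group was measured on 2 mouse 430A arrays, and the titles give 2 dates, each with 1 array of each group, named date 1 and date 2 below. All arrays are of 1 cell line, and no label says that they came from separate cultures, so p-values measure only the spread between these arrays, which may be technical. What the dates mark is not stated, and no cells kept in plain or acidified medium were analysed here.

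The transferases fall into classes that differ in place and substrate. The alpha, mu, pi, omega and theta enzymes are soluble, the kappa enzyme sits in mitochondria and peroxisomes, and Mgst1 is a membrane protein of the endoplasmic reticulum and the outer mitochondrial membrane. In gut epithelium they handle electrophiles from food, bacteria and lipid oxidation, and several of their genes are known targets of NRF2, the transcription factor that acts through antioxidant response elements. The conjugates leave the cell through pumps such as Abcc1. The ligase that Gclc and Gclm encode takes the first step of making glutathione, which the enzyme of Gss completes.

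Mean intensities after trimming 2% of values at each end were 500.1 to 513.5 on the 4 arrays, and having so few arrays limits how precise any value is. Of the epithelial markers, 3 of 12 (Krt8, Krt18 and Krt19) had a mean intensity of at least 101, the limit for testing, and Epcam, Cdh1 and Vil1 were among the 9 below it, whose highest single value was 109. Of the fibroblast markers with values on all arrays, 4 of 6 passed that limit, among them Col1a1 and Dcn. The summed fibroblast markers measured 14776 and 13236 in LGG cells and 20142 and 17503 in untreated cells, the summed epithelial markers 3415 and 2921 in LGG cells and 2442 and 3307 in untreated cells, and of 6 immune and 3 endothelial markers only Cd68 and Kdr passed the limit. Among these markers of other cell types, Cd68 and Kdr rose by log2 changes of 1.06 and 1.29 and Dcn fell by 0.91 (limma adjusted p = 0.0314, 0.00924 and 0.0014). The other fibroblast markers tested, Col1a1, Col1a2 and Pdgfra, were also below 0, at -0.04, -0.59 and -0.44, but did not pass (list median -0.51). The immune and endothelial lists were mixed. The immune marker Lyz2, below the limit, measured 98 and 14.7 in LGG cells, against 116.7 and 146.9 in untreated cells. The endothelial marker Pecam1, also below it, measured 12.1 and 21.3 in LGG cells, against 48 and 34.1 in untreated cells. The smooth muscle markers Acta2 and Des, at -0.02 and 0.12, did not pass either. Nor did the epithelial markers, which went opposite ways. Krt18 and Krt8 had log2 changes of 0.66 and 0.23 and Krt19 one of -0.72 (limma adjusted p = 0.138, 0.645 and 0.0693). The part of all these markers in the results below was not tested. Fewer cells of a type and less RNA per cell cannot be told apart.

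None of the transferase genes was called changed by LGG medium. Of the 10 genes, 8 had a probe set that could be tested and 0 of the 8 passed (limma blocked on date, p adjusted by Benjamini and Hochberg's method over all 10333 probe sets tested, threshold 0.05), while 6.50% of all genes tested passed. At an unadjusted p under 0.05 there was 1 gene, Gstt1, against 20.3% of all genes. Fitted log2 changes ran from -0.30 for Gstm2 to 0.73 for Gstt1, with 6 genes above and 2 below 0. Their median was 0.07 and the median of their absolute values 0.17, against 0.03 and 0.24 over all genes tested. The arrays of both groups overlapped for 5 genes and did not overlap for 3 of the 8, while 48.5% of all genes did not overlap. LGG cells were higher in 2 of these, Gstm1 and Gstt1 (26.2% of all genes), and lower in 1, Gstm2 (22.3% of all genes).

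**Figure D1:**
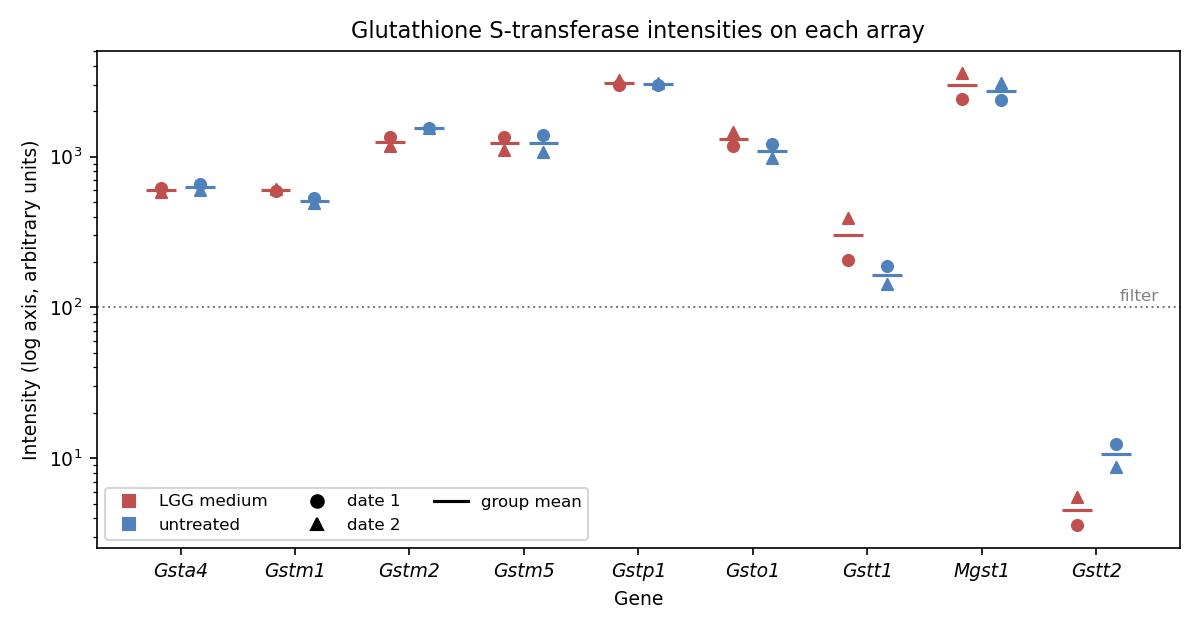
Intensity (log axis, arbitrary units) of 9 transferase genes on each array, with LGG medium to the left of untreated, circles for date 1, triangles for date 2 and bars for group means. Gstt1 is the gene whose groups stand farthest apart among those above the dotted limit of 101, and Gstt2 lies far below that limit in both groups; intensities of different genes cannot be compared, since probes differ in how well they bind.

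Gstt1, a theta-class enzyme that acts on small halogenated compounds, had the largest fitted change. It measured 207.5 at date 1 and 394.3 at date 2 in LGG cells, against 188.3 and 142.1 in untreated cells. Both LGG arrays were above both untreated arrays, but the distance was small at date 1, with a log2 ratio of 0.12, and large at date 2, with one of 1.33. The fitted log2 change was 0.73 ± 0.30 (SE, 95% interval 0.08 to 1.37), with a limma p of 0.0311 and an adjusted p of 0.19. One array decided its size: the log2 change was 0.30 without LGG replicate 2 and 1.15 without LGG replicate 1 (fitted without the date block). Gstt2, the theta-class neighbour that acts on sulfate esters, measured 3.6 and 5.5 in LGG cells and 12.4 and 8.7 in untreated cells. Both LGG arrays were lower, at intensities far below the limit for testing, so no fold is given.

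The 3 genes whose pattern over the 4 arrays was most like that of Gstt1 were Hebp1, Socs7 and Icmt, with root mean square differences of 0.0734, 0.0772 and 0.0879 in centred log2 values. Hebp1, for example, measured 215.8 and 388.2 in LGG cells, against 168 and 131.8 in untreated cells. None of the 3 passed the test either (limma adjusted p = 0.108, 0.138 and 0.123), and with 4 arrays such likeness is a description only.

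The mu-class genes lie in 1 cluster, in the order Gstm5, Gstm7, Gstm6, Gstm3, Gstm2, Gstm1 and Gstm4, and those tested had fitted changes of both signs, none of which passed. Gstm2 measured 1346 and 1172.9 in LGG cells, against 1539.3 and 1557 in untreated cells. It was lower in LGG cells at both dates, by log2 ratios of -0.19 and -0.40, and the fitted change of -0.30 ± 0.20 (95% interval -0.72 to 0.12) did not pass (limma adjusted p = 0.435). Gstm1, next to it, measured 589.7 and 607.3 in LGG cells, against 528.1 and 492.2 in untreated cells, on its brightest probe set. The LGG arrays were higher here, with log2 ratios of 0.15 and 0.29 and a fitted change of 0.22 ± 0.23 (95% interval -0.27 to 0.71, limma adjusted p = 0.644). Gstm5, at the far end of the cluster, measured 1352.6 and 1106.4 in LGG cells and 1383.7 and 1075.3 in untreated cells. Each LGG array lay close to the untreated array of its date, and the dates stood farther apart than the groups, with a fitted change of 0.00 (95% interval -0.42 to 0.43) for the medium and -0.32 for date 2 over date 1 (limma adjusted p = 0.995 and 0.587). The mu-class sequences are close relatives, so a probe set of 1 gene may take signal from another.

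Gstp1, the pi-class enzyme that also restrains the stress kinase JNK, had nearly the same values in both groups. It measured 2968.9 and 3212.5 in LGG cells and 2977 and 3071.7 in untreated cells, a fitted log2 change of 0.03 ± 0.16. The 95% interval of its fold was 0.805 to 1.3. On the log2 scale this interval, -0.31 to 0.37, was the narrowest of the 8. Its close neighbours Gstp2, not analysed here, and Gstp3, below the limit for testing, encode similar proteins. Gsta4, the alpha-class enzyme that clears the lipid aldehyde 4-hydroxynonenal, measured 615.4 and 586.1 in LGG cells, against 660 and 599.7 in untreated cells, and its groups overlapped (log2 change -0.06 ± 0.22, limma adjusted p = 0.912).

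Gsto1, the omega-class enzyme that reduces dehydroascorbate and removes glutathione from proteins, pointed different ways at the dates. Its brightest probe set measured 1182.6 and 1449.6 in LGG cells, against 1207.7 and 973.2 in untreated cells. The groups overlapped, since the LGG array of date 1 was just below its untreated partner (log2 ratio -0.03) and that of date 2 well above it (0.56). The fitted change was 0.27 ± 0.21 (95% interval -0.20 to 0.73, limma adjusted p = 0.538), and it lay at 0.11 and 0.12 without untreated replicate 2 or LGG replicate 2 and at 0.42 and 0.41 without untreated replicate 1 or LGG replicate 1. A second probe set, with values at date 2 only, measured 734 in LGG cells and 813.2 in untreated cells, so at date 2 the probe sets of Gsto1 pointed in opposite directions.

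Mgst1, the microsomal transferase that also reduces lipid peroxides, measured 2400.5 and 3564.2 in LGG cells and 2358.1 and 3071.8 in untreated cells. The arrays of date 2 were higher than those of date 1 in both groups, by a fitted log2 difference of 0.47 that did not pass (limma adjusted p = 0.305), and the medium had a fitted change of 0.12 ± 0.17 (95% interval -0.24 to 0.47, limma adjusted p = 0.75). Between the dates 0 of the 8 genes passed (lowest limma adjusted p 0.305), against 0.388% of all genes. Gstk1, the kappa-class gene, had values at date 2 only, 59.7 in LGG cells and 70.5 in untreated cells, and was not tested.

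**Figure D2:**
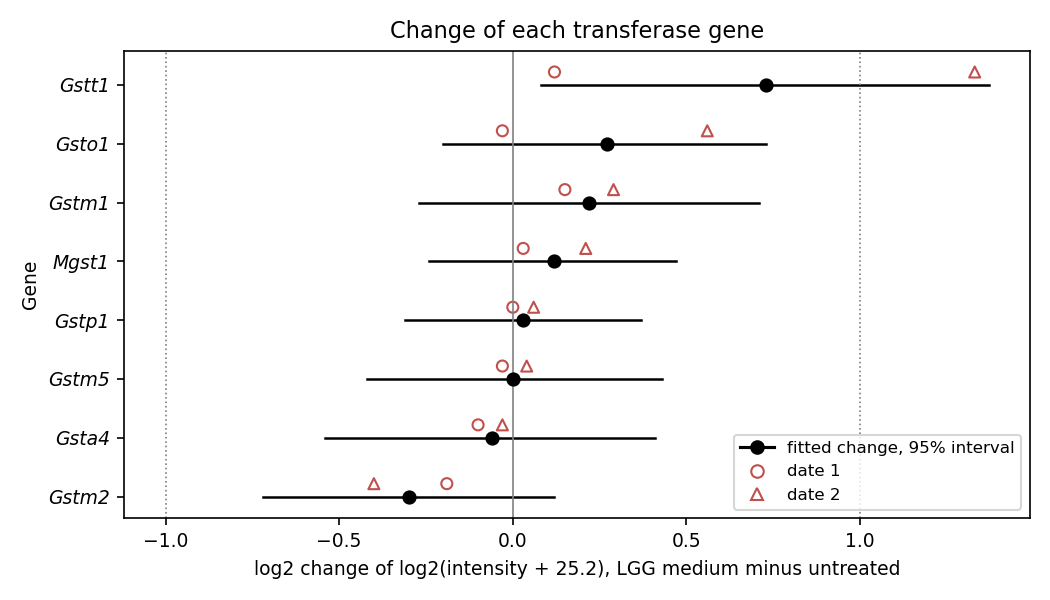
Fitted log2 change (LGG medium minus untreated) of the 8 transferase genes tested, as filled points with 95% intervals, and the ratio within each date as open circles (date 1) and triangles (date 2). The interval lies on 1 side of 0 for Gstt1 only, whose ratios of 0.12 and 1.33 are also the farthest apart; the dotted lines mark a 2-fold change.

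The intervals reflect the spread between these arrays, which may be technical. They set no bound on a change between separate cultures. For 7 of the 8 genes, all but Gstt1, the 95% interval lay within a 2-fold change in either direction, and for 4 of them, Gsta4, Gstm5, Gstp1 and Mgst1, within a 1.5-fold change. For Gstt1 the interval of the fold was 1.05 to 2.59. The share of all genes with intervals within these limits is not given here. The ratio stayed within 0.5 of 0 on the log2 scale at both dates for 6 of the 8 genes, all but Gstt1 and Gsto1, against 59.9% of all genes, and its sign was the same at both dates for 5, against 65.2%. These intervals use a variance that limma shares across genes (a prior worth 12.5 degrees of freedom, beside 1 of its own), so they can understate the distance between dates for a single gene.

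Several probe sets reported 3 of the genes, and they did not always point the same way. The suffix _x_at marks probe sets whose probes can bind other transcripts, and _a_at those that cover several transcripts of 1 gene. For Gstm1, the other 2 tested probe sets had fitted log2 changes of 0.13 and, for one marked _x_at, 0.16, near the 0.22 of the brightest, also marked _x_at. The fourth was below the limit for testing and measured 81.3 and 76.3 in LGG cells, against 144.9 and 59.3 in untreated cells, so that its ratio was below 0 at date 1 and above 0 at date 2. The dim second probe set of Mgst1 measured 42.7 and 10.6 in LGG cells and 26 and 29.6 in untreated cells, also with opposite signs. Of the 15 probe sets, 10 were tested, 3 were below the limit and 2 had no value at date 1.

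**Figure D3:**
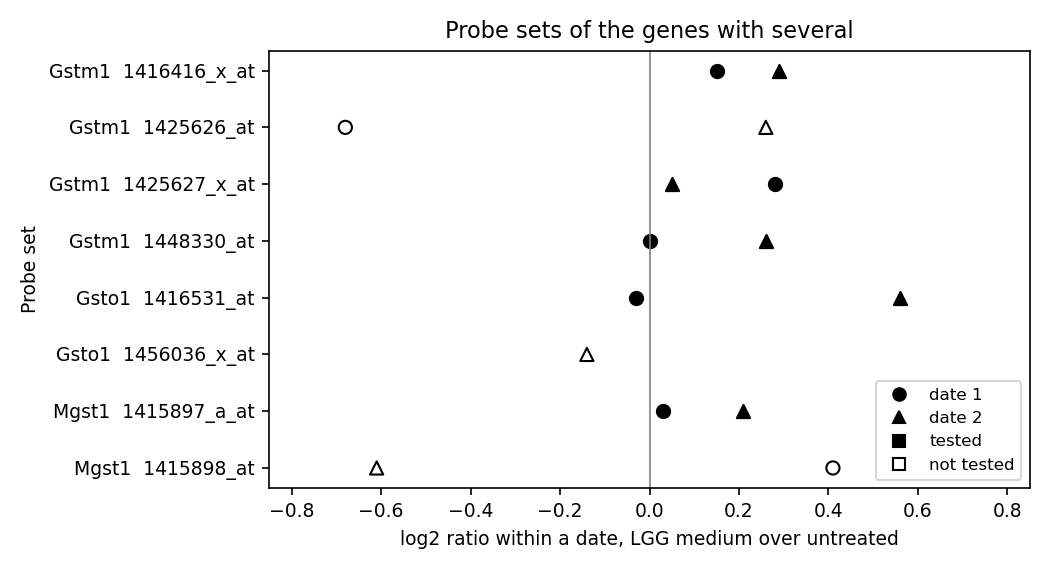
Log2 ratio within each date (LGG medium over untreated) for each probe set of Gstm1, Gsto1 and Mgst1, with circles for date 1, triangles for date 2, filled where the probe set was tested. The tested probe sets lie between -0.03 and 0.56, and the dim ones scatter on both sides of 0. The second Gsto1 probe set, untested because it has values at date 2 only, is not dim and lies at -0.14.

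Promoters were read to see which transferases carry an antioxidant response element close to their start. RefSeq promoter windows (GRCm38.p6) matched 8 of the 10 genes, all but Gsta4 and Gstt2. The core TGANNNNGC was searched on both strands of the 250 bases before each start, and 4 of the 8 genes, Gstm5, Mgst1, Gstt1 and Gstp1, held it. By windows, of which some genes have several, this was 4 of 10, against 35.2% of all 32851. The narrower TGANTCAGC, a part of the first motif picked after the Gstp1 promoter was seen, was found in Gstp1 alone of the 8 and in 1.02% of all windows. The stretches from 100 to 41 bases before the start are printed 5′ to 3′ in the direction of transcription for 4 genes. Matches to TGANNNNGC on either strand are in capitals. The genes are the one with the narrowest log2 interval (Gstp1) and the membrane enzyme (Mgst1, the first of its 2 starts). The gene with the highest fitted change (Gstt1) and the one with the lowest (Gstm2) follow. The stretches come from chr19:4037953-4038012 (minus strand), chr6:138140427-138140486 (plus), chr10:75797772-75797831 (minus) and chr3:107986461-107986520 (minus).
Gstp1: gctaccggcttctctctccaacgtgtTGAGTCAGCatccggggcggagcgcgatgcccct
Mgst1: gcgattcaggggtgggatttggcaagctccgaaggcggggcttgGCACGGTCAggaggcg
Gstt1: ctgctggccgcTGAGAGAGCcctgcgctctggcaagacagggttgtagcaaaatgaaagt
Gstm2: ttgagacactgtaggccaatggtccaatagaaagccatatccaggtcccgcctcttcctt
Gstp1 holds the narrower motif, Mgst1 and Gstt1 hold the wider core only, and Gstm2 has no match. A match is a run of letters and not a measured binding site.

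Beside the 8, a further 6 transferase genes of a list of 21 could be tested. Of these 0 rose and 0 fell, against 3.01% of all genes higher and 3.50% lower. At an unadjusted limma p under 0.05 there was 1, Gstz1, against 20.3% of all genes. The median log2 change of the 6 was -0.22. Gstz1, the zeta-class enzyme of tyrosine breakdown, measured 83.1 and 86.2 in LGG cells, against 129.3 and 161.1 in untreated cells. Both LGG arrays were lower, but the change of -0.63 ± 0.28 did not pass (limma adjusted p = 0.224). The LGG mean of 84.7 was below the limit of 101, so Gstz1 was tested only through its untreated arrays. Of the mu cluster, Gstm4 (-0.27) and Gstm7 (0.25) did not pass either.

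Among genes that supply glutathione and export its conjugates some rose, and the difference between these lists and the transferases was not tested. Of 14 supply and recycling genes tested, 3 rose and 0 fell, against 3.01% of all genes higher and 3.50% lower, with a list median of 0.03. Gclm, the modifier subunit of the ligase, measured 1235.2 and 917.2 in LGG cells, against 591.4 and 465.7 in untreated cells. The LGG arrays did not overlap the untreated ones, and Gclm rose by a log2 change of 0.99 ± 0.22 (limma adjusted p = 0.016). Gclc, the catalytic subunit, rose by 0.92 ± 0.25 on its brightest probe set (limma adjusted p = 0.0402), but its other probe set measured 124.8 and 304.7 in LGG cells and 172.6 and 150.4 in untreated cells, and the mean of both did not pass (adjusted p = 0.123). Slc3a2, the heavy chain of the cystine transporter and of other amino acid transporters, rose by 0.79 ± 0.15 (limma adjusted p = 0.00852). Its light chain for cystine, Slc7a11, measured 104.9 and 122.5 in LGG cells and 106.4 and 118.9 in untreated cells. Gss and Gsr, which complete and recycle glutathione, had log2 changes of -0.32 and -0.04 and did not pass (limma adjusted p = 0.496 and 0.947).

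Of 5 genes of conjugate export and of the mercapturate steps tested, 1 rose and 0 fell, with a median of 0.17. Over all genes 3.01% rose and 3.50% fell. The pump gene Abcc1 measured 1367.7 and 1606.7 in LGG cells, against 680.8 and 685.9 in untreated cells. On this brightest probe set it stood apart at both dates and rose by a log2 change of 1.09 ± 0.21 (limma adjusted p = 0.00786), while its other probe set had a change of 0.54 that did not pass (0.225). Abcc5 (0.17) and Acy3 (0.27), a deacylase of mercapturates, did not pass. Their log2 ratios changed sign between the dates (-0.04 and 0.39, -0.06 and 0.61). Other Abcc5 probe sets had values at date 2 only. Some were lower in LGG cells (230.2 and 108.8, against 854.7 and 343.1 in untreated cells). The rest were higher (449.6, 1182.5 and 649, against 328.9, 931.7 and 552.8). Abcc3, also with values at date 2 only, measured 9.2 in LGG cells and 101.6 in untreated cells.

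Of 11 regulators tested, 2 rose and 2 fell, against 3.01% of all genes higher and 3.50% lower, with a list median of -0.07. Nfe2l2, which encodes NRF2, measured 1161.5 and 916.4 in LGG cells and 1062.8 and 1202.6 in untreated cells, and its groups overlapped. Keap1, of the same list, had log2 changes of -0.33 and -0.80 on its probe sets, which did not pass (limma adjusted p = 0.436 and 0.0791). Mafk, at 0.76, did not pass either (limma adjusted p = 0.0847). Maff, a partner of NRF2, rose by 1.34 ± 0.34 (limma adjusted p = 0.0321), with uneven log2 ratios of 2.14 and 0.54. It was at 0.51 without LGG replicate 1 and 2.17 without LGG replicate 2. Its untreated arrays, at 102.9 and 97.4, averaged 100, below the limit of 101, so Maff was tested only through its LGG arrays. With no filter on dim probe sets its limma adjusted p was 0.249, and its call is a description only. Nfe2l1, the relative NRF1, rose by 0.79 ± 0.20 (limma adjusted p = 0.0342). Ahr, the receptor for aromatic compounds that can also drive transferase genes, fell by a log2 change of 1.18 (limma adjusted p = 0.00503), with 601 and 715.4 in LGG cells, against 1251.8 and 1840 in untreated cells on its brightest probe set. Its other probe set had a log2 change of -0.55 that did not pass (limma adjusted p = 0.25). Cebpb fell by 0.98 on the log2 scale (limma adjusted p = 0.0348), with uneven ratios of -0.36 and -1.59, and was at -1.5 without LGG replicate 1 and -0.46 without LGG replicate 2.

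Of 10 other enzymes of conjugation and detoxification tested, 0 rose and 1 fell, with a median of 0.06. The shares over all genes were 3.01% higher and 3.50% lower. Ephx1, the microsomal epoxide hydrolase, which shares epoxide substrates with the transferases, measured 1628.8 and 1949.9 in LGG cells, against 2864.8 and 3015.3 in untreated cells. It was lower at both dates and fell by 0.71 on the log2 scale (SE 0.17, limma adjusted p = 0.0264). The quinone reductase gene Nqo1 (0.82) and the thioredoxin reductase gene Txnrd1 (0.53 on its brightest probe set) did not pass (limma adjusted p = 0.0648 and 0.1), and another Txnrd1 probe set was lower in LGG cells at date 1 (log2 ratio -0.33) and higher at date 2 (0.42). Without date as a block none of the genes of these lists passed (lowest limma adjusted p 0.0533, for Abcc1). In that fit 13 of 46 had an unadjusted limma p under 0.05, against 1064 of all 6952 genes. Each gene of these lists given as risen or fallen kept its sign with either LGG array left out. Such a fit holds 1 LGG array, so only sizes are given for it here. The smallest log2 changes were those of Cebpb (-0.46, without LGG replicate 2) and Maff (0.51, without LGG replicate 1). In both fits Abcc1 stayed at 0.98 or higher and Ahr at -1.06 or lower. Median scaling ended the calls of Cebpb, Maff, Nfe2l1 and Ephx1 (limma adjusted p = 0.105, 0.0719, 0.0579 and 0.0596). Without the intensity trend only Gclm, Abcc1 and Ahr still passed (limma adjusted p = 0.0453, 0.0356 and 0.0303). Quantile normalization ended the calls of Maff and Cebpb (limma adjusted p = 0.0531 for each). The filter at 50% of the trimmed mean ended those of Gclc and Cebpb (limma adjusted p = 0.0546 and 0.0534), and Maff was below it. The markers Cd68, Kdr and Dcn are not covered by these values.

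**Figure D4:**
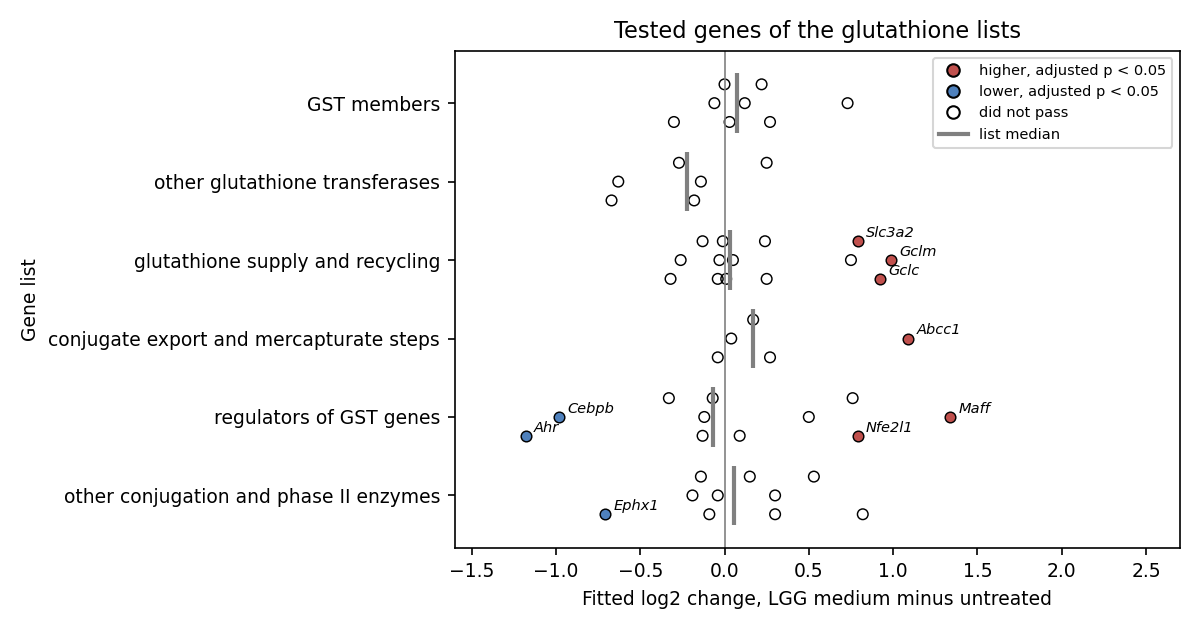
Fitted log2 change (LGG medium minus untreated) of each tested gene in 6 lists, with the list median as a grey bar and filled points for genes that passed (limma adjusted p under 0.05). The 8 transferases of the first row and the 6 of the second hold no filled point, while Gclm, Gclc, Slc3a2, Abcc1, Nfe2l1 and Maff lie to the right and Ahr, Cebpb and Ephx1 to the left. Of these, Maff averaged 100 in untreated cells, below the limit of 101, and was tested only through its LGG arrays.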

How the data were processed

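RNA was extracted with Trizol and a Qiagen kit, per the labels, and profiled on 4 arrays. Intensity values on a linear scale were deposited by the authors as 1 table, and the software and scaling are not given in the sources used here. For 6307 probe sets the arrays of date 1 lacked values, and these were not tested.

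Groups and dates came from the titles. The dates pair the arrays: the date differences of the 2 groups correlated at 0.27 across probe sets. Values were taken as log2(intensity + 25.2), the pseudocount being 5% of the trimmed mean, which understates folds of dim genes. Without the 64 control probe sets, 10333 probe sets for 6952 genes had a mean of 101 or more (20% of the trimmed mean). Tests were two-sided, with limma 3.58.1 in R 4.3.3 (group and date, eBayes with trend), adjusted over all probe sets tested. The code was checked on simulated data with independent arrays and normal noise. That check cannot show whether the model suits these arrays. The smallest two-sided p of an exact permutation test of 2 against 2 arrays is 0.333. A gene was read from its brightest tested probe set. Symbols came from the platform annotation. The files name no genome build, so the only coordinates given are those of the printed promoter stretches, from RefSeq. Named genes were all 10 transferases, and of each list the genes that passed and up to 3 with the largest change of 1 sign at both dates. Others, such as Slc7a11, Gss, Gsr, Nfe2l2, Keap1, Mafk, Abcc3, Abcc5 and Acy3, were chosen after their values were seen. The transferases and lists were chosen with earlier results of these data known. Figures were drawn with matplotlib 3.10.9.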

Additional observations from a re-analysis of the deposited data

How the results depend on the processing

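The count of 0 transferase genes that passed held under every alternative run with all arrays, each for 7 to 9 genes tested. The lowest limma adjusted p-values there ran from 0.0602 (mean of the probe sets of a gene) to 0.427 (no filter on dim probe sets). Under the 9 settings with all arrays, quantile normalization turned the sign of Gstm5 (-0.01) and no other transferase turned. With 1 array left out in turn (fitted without the block) the log2 changes ranged from -0.13 to 0.00 for Gsta4, -0.17 to 0.18 for Gstm5, -0.03 to 0.09 for Gstp1, -0.16 to 0.40 for Mgst1 and -0.60 to 0.06 for Gstm4. Of the genes of the 5 other lists, 9 passed, and this count was 0 with no replicate block (date not in the fit), 0 with no filter on dim probe sets (13 at an unadjusted p under 0.05 in each), 5 with median scaling, 3 without the intensity trend and 0 to 6 with 1 array left out. Over all genes, 452 passed, against 61 with no replicate block, 0 of 10782 with no filter (1525 at an unadjusted p under 0.05), 244 without the trend, 813 with the mean of probe sets (420 of them among the 452, at 41.2 prior degrees of freedom against 12.5) and 0 to 428 with 1 array left out. The causes were not tested. The other pseudocounts, the filter at 50% of the trimmed mean and quantile normalization kept these counts within 1.5 times. Gstt1 was below the stricter filter. No detection calls were used here, so values below 101 carry no statement on background.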

Other observations

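Among the other transferase genes, Ptges, the inducible prostaglandin E synthase of the Mgst1 family, was uneven: its brighter probe set measured 29.2 at date 1 and 170.8 at date 2 in LGG cells, against 126.9 and 152.1 in untreated cells. The fitted log2 change of -0.67 ± 0.36 did not pass (limma adjusted p = 0.317), and the array of LGG cells at date 1 is the one that stands apart. The LGG mean of 100 was below the limit of 101, so Ptges was tested only through its untreated arrays. Ptges and Chac1 were chosen after their values were seen.

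At date 2, where the probe sets without values at date 1 can be read, Mgst2 measured 257.8 in LGG cells and 305 in untreated cells, and a probe set of Gstm3 that can also bind related transcripts measured 279.5 in LGG cells and 245.9 in untreated cells. Chac1, an enzyme that breaks glutathione down, measured 1804 and 921.9 in LGG cells, against 788.9 and 722 in untreated cells, and did not pass (limma log2 change 0.75, adjusted p = 0.0761). Gapdh control probe sets at the 3′ and 5′ ends of the transcript, which track RNA integrity, had a ratio of 0.931 and 0.768 in LGG cells and 0.805 and 0.784 in untreated cells.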
